A study of Mus musculus with 3 samples.

Results

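Genes of glycolysis and of the response to low oxygen were followed through the cells of the inflamed mouse colon. The members were chosen by symbol and are 31 of the 32285 genes in the matrices, held in 32 rows because Aldoa has 2 rows, which were summed. Of the members, 15 encode enzymes of glycolysis and its control, 3 encode sugar or lactate carriers, and 13 belong to the hypoxia response around the transcription factor HIF-1. All 31 were measured in at least 1 cell class, and the number of classes in which a member was measured ranged from 2 (Hk3) to 16.

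The series holds 3 single-cell RNA libraries, 1 per group, from the large intestine of C57/BL6J mice with acute colitis. All groups drank 1.5% dextran sulfate sodium (DSS) for 7 days and water for 3 more, and each received 250 µg of antibody 3 times a week: DATK32, MECA367 or RatIgG, a rat immunoglobulin control. The labels describe viable lamina propria cells sorted for CD45. The age, the sex and the number of mice behind a library are not given in the labels. The labels pair DATK32 with ontamalimab and MECA367 with vedolizumab, whereas from general knowledge DATK32 binds the integrin that vedolizumab targets and MECA367 binds its vessel ligand, so groups are named by clone here. With 1 library per group no difference has a replicate check and no p-value was computed. Exact 95% intervals stand in brackets and reflect counting error alone.

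After filtering, 5852 cells of DATK32, 5890 of MECA367 and 7367 of RatIgG were kept, from deposited matrices with 28030376, 27846540 and 30359331 UMIs (unique molecular identifiers, each 1 captured RNA molecule). Clusters named from marker genes gave 16 classes that held 50 cells or more per library, and every class name below stands for an "X-like" cluster. They are neutrophil-like, monocyte-like and macrophage-like cells, absorptive, goblet, Aqp4 and Cftr crypt and cycling crypt epithelial cells, fibroblasts led by Adamdec1 and Ccl11 and fibroblasts led by Lum and Dpt, smooth muscle cells or pericytes, interstitial cells of Cajal, endothelial cells, T cells, NK cells or ILC1, B cells and plasma cells. The epithelial and stromal classes go against the labelled sort for CD45. Depth differed between libraries within a class: the median neutrophil carried 1136.5 UMIs in DATK32, 2463 in MECA367 and 863 in RatIgG, and the median T cell 950, 1259 and 762 in the same order. The DATK32 and RatIgG libraries shared 11 cell barcodes, MECA367 and RatIgG 9, and DATK32 and MECA367 7. Levels are given as CPM, the UMIs of a gene scaled to the same total of UMIs for every class and library. They come from transcript ends and are compared between cells, not between genes.

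Glycolysis splits glucose into pyruvate in the cytosol. Carriers bring the sugar in, hexokinases trap it by phosphorylation, and lactate dehydrogenase with the lactate carrier lets the pathway run without oxygen. When oxygen is scarce, prolyl hydroxylases stop marking HIF-1α for destruction, and the factor raises transcription of many of these genes. In the gut the epithelium lies at the border of an oxygen-poor lumen, and neutrophils that enter inflamed mucosa depend largely on glycolysis and use oxygen quickly.

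HIF-1 recognises a short core in DNA, and the 250 bases before the transcription start of each member were searched for ACGTG and GCGTG on both strands, which as printed can also read CACGT and CACGC. Matches on opposite strands overlap where the E box CACGTG occurs. RefSeq promoters of GRCm38.p6 were matched for 27 of 31 members by symbol, in 37 promoters because some genes have several starts, while Slc2a3, Bnip3l, Ero1l and Ndrg1 had none. A core was present in 29 of 37 member promoters (78.4%), against 38.6% of all 32851 promoters and 54.9% of the 11902 promoters of genes measured in at least 1 class. At least 2 cores stood in 51.4% of member promoters, against 16.7% of all promoters and 26.9% of those of measured genes. Base composition differs too, with a median GC of 62.8% in member promoters, 52.4% in all promoters and 59.6% in those of measured genes, and its part in these shares was not tested. The E box stood in 4 member promoters and in 6.02% of all promoters. A match describes letters and is no shown binding site. The 5 promoters below are shown because the results return to them: Hk2 for its difference between libraries, Hk3 and Slc16a3 for their myeloid levels, and Slc2a1 and Ldha as known hypoxia targets that had no call. Capitals mark the core matches, with the flanking letter of the E box where there is one.
Hk2, chr6:82774455-82774704, minus strand: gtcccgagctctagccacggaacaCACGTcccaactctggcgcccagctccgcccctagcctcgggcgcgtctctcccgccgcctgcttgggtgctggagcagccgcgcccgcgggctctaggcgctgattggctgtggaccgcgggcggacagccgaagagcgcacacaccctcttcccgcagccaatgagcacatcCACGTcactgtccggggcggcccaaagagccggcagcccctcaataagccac
Hk3, chr13:55021386-55021635, minus strand: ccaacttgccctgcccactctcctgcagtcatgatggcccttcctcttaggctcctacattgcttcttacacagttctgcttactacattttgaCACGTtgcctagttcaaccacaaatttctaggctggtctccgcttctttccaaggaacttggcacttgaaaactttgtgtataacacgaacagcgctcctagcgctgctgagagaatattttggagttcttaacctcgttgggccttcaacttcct
Slc2a1, chr4:119108495-119108744, plus strand: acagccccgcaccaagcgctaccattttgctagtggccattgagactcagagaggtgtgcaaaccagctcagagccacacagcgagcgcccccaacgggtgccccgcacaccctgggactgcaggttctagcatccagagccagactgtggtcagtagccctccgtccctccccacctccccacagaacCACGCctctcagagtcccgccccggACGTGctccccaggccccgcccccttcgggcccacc
Slc16a3, chr11:120948817-120949066, plus strand: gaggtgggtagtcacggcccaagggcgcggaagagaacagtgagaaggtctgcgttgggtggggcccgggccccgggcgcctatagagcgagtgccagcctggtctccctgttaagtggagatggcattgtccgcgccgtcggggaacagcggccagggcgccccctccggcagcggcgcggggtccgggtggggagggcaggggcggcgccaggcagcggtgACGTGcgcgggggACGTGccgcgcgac
Ldha, chr7:46845554-46845803, plus strand: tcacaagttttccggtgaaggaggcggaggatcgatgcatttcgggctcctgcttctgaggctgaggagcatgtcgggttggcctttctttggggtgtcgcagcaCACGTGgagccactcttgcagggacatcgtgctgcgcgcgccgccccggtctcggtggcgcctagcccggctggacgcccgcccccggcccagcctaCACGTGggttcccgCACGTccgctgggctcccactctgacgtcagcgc
All read 5′ to 3′ toward the start. Hk2 has its matches 226 and 52 bases before the start, and Hk3 has 1 match, 156 bases before it. Slc2a1 has matches at 61 and 36 bases and Slc16a3 at 27 and 14 bases. Ldha has 5 matches, 4 of which form 2 E boxes. Another Ldha promoter, chr7:46846832-46847081, is not shown and has 1 match and no E box.

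**Figure D1:**
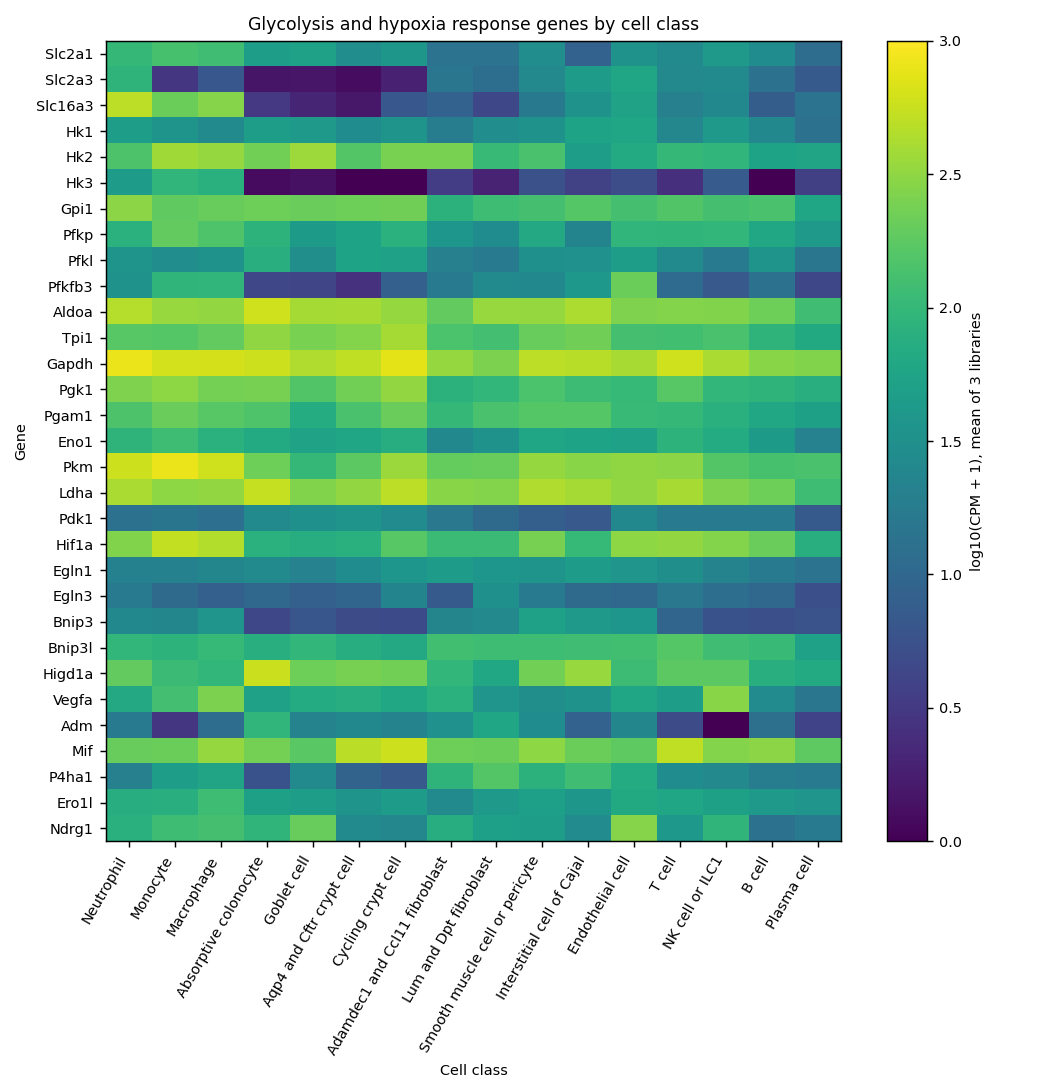
Mean level of each member (rows, ordered from carriers through enzymes to hypoxia response genes) in 16 cell classes (columns), as log10 of the CPM plus 1 averaged over the 3 libraries. Slc2a3, Slc16a3, Hk3 and Pfkfb3 are dark in epithelial columns and bright in a few others, while Gapdh, Aldoa and Ldha are bright in every column.

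The carriers differed between cell classes. Slc16a3 encodes MCT4, which exports lactate. It stood at 508 CPM [450 to 573] in neutrophils of DATK32, 522 [490 to 555] in those of MECA367 and 491 [429 to 559] in those of RatIgG. Macrophages followed with 302, 215 and 339 CPM in DATK32, MECA367 and RatIgG, and monocytes with 198, 190 and 241. In the 4 columnar epithelial classes no library exceeded 11.3 CPM. Neutrophils were thus highest in each library, with intervals apart from those of macrophages in DATK32 and MECA367 but not in RatIgG.

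Slc2a3, the high-affinity glucose transporter GLUT3, was also highest in neutrophils, at 82.2 CPM [59.8 to 110.4] in DATK32, 99.02 [85.6 to 114.0] in MECA367 and 84.4 [59.99 to 115.3] in RatIgG. Monocytes held 0 UMIs in DATK32, 0 in MECA367 and 1 in RatIgG, and macrophages 0, 0 and 2. The exact interval of 0 UMIs in monocytes reached up to 13.3 CPM in DATK32 and 10.76 in MECA367. A count of 3 UMIs there would be 10.8 and 8.75 CPM. Endothelial cells carried 48.2, 62.5 and 62.2 CPM, T cells 13.3, 24.6 and 35.9, and no columnar epithelial class exceeded 2.05. The neighbouring myeloid classes thus differed in this transporter although they shared the lactate carrier.

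Slc2a1 encodes the widely used transporter GLUT1. It was carried by all 3 myeloid classes, at 133, 134 and 129 CPM in monocytes of DATK32, MECA367 and RatIgG, 146, 133 and 74.3 in macrophages, and 110.3, 113 and 71.4 in neutrophils. Their intervals overlapped in each library. Goblet cells held 45.6, 59.5 and 48.3 CPM and absorptive cells 42.0, 49.5 and 46.97, so the epithelium carried this transporter at a lower level.

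**Figure D2:**
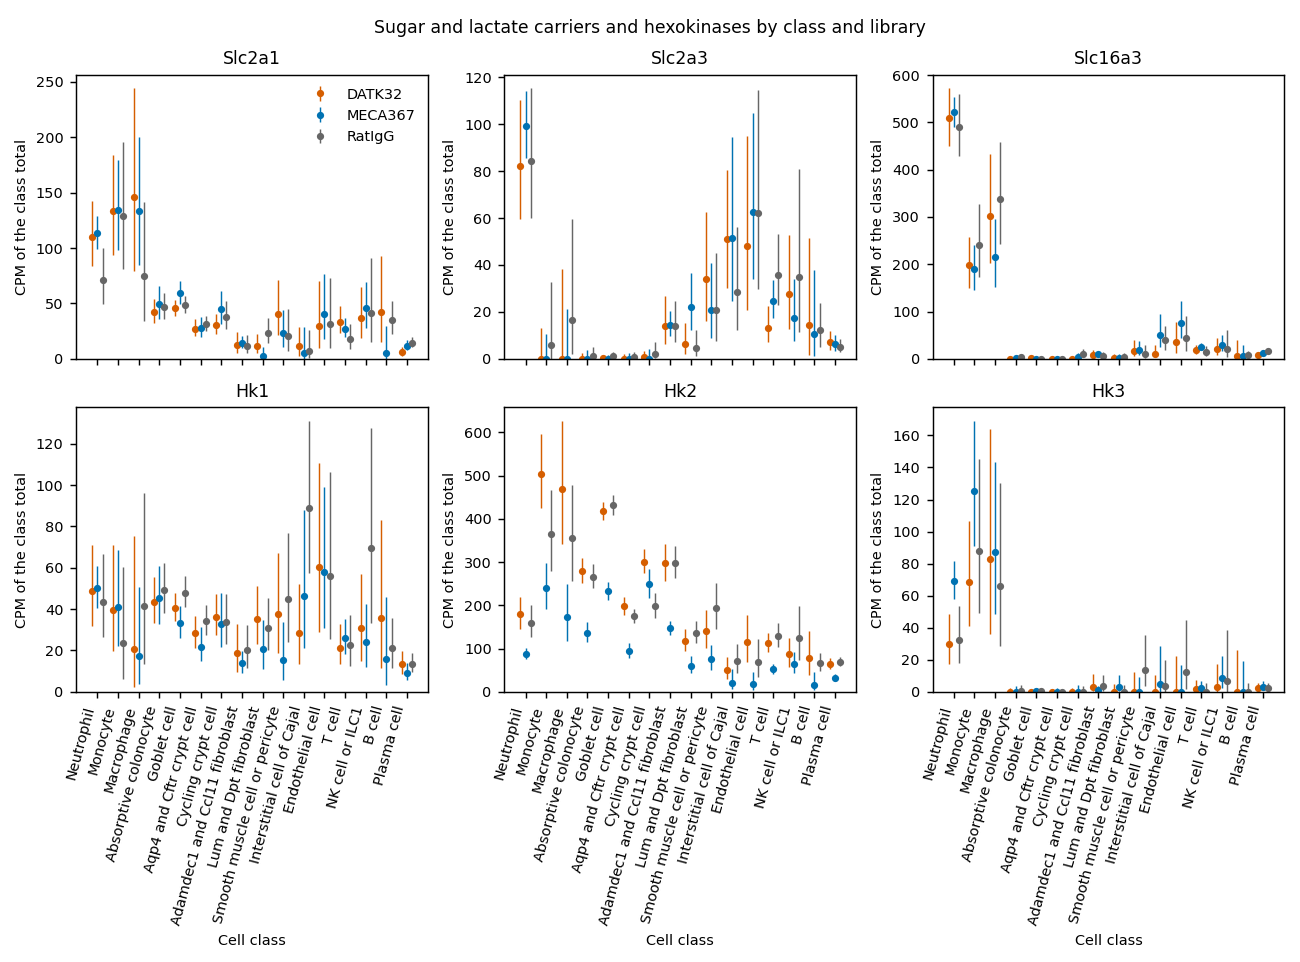
CPM of the class total (vertical axes, each from 0) for Slc2a1, Slc2a3, Slc16a3, Hk1, Hk2 and Hk3 in 16 classes; points are the 3 libraries (DATK32, MECA367, RatIgG) and bars exact Poisson 95% intervals. Slc2a3 and Slc16a3 peak in neutrophils, Hk3 is found in the 3 myeloid classes, and the MECA367 point of Hk2 lies below the others in most classes.

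The hexokinases catalyse the same step in different cells. Hk1, the housekeeping enzyme, lay between 9.07 and 88.8 CPM across the 16 classes and 3 libraries, with endothelial cells at 60.2, 58.1 and 56.01 CPM in DATK32, MECA367 and RatIgG. Hk3, a form known mainly from myeloid cells, was measured only in neutrophils and monocytes. It stood at 68.4, 125 and 88.2 CPM in monocytes of DATK32, MECA367 and RatIgG, at 83.2, 86.997 and 66.1 in macrophages and at 29.9, 68.9 and 32.4 in neutrophils. In the columnar epithelium no class and library held more than 2 UMIs of Hk3.

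Hk2, the inducible form that can sit on mitochondria, was highest in monocytes, macrophages and goblet cells in DATK32 and RatIgG. Its levels were 504 CPM [424 to 595] in monocytes of DATK32, 239 [190.3 to 297] in those of MECA367 and 364 [279 to 467] in those of RatIgG. Macrophages held 468, 174 and 355 CPM in the same order. Goblet cells held 418, 232 and 431 CPM, and Adamdec1 and Ccl11 fibroblasts 297, 147 and 298. Neutrophils held less than monocytes, at 179, 87.8 and 160.1 CPM, and plasma cells 64.97, 32.1 and 69.1. The MECA367 value was the lowest of the 3 libraries in each of these classes.

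The middle of the pathway was broadly carried, with small steps between classes. Gapdh, which catalyses the electron-yielding step, was high in cycling crypt cells, at 726, 764 and 738 CPM in DATK32, MECA367 and RatIgG. It was also high in neutrophils, at 686, 1071 and 707. Aldoa, aldolase A, was highest in absorptive colonocytes of each library, at 605, 522 and 681 CPM, with intervals apart from those of the other classes in DATK32 and RatIgG but not in MECA367. Tpi1, triosephosphate isomerase, was highest in cycling crypt cells, at 375, 385 and 427 CPM. Pgk1, the first ATP-yielding kinase, was highest in cycling crypt cells of DATK32 and RatIgG (338 and 351 CPM) and in macrophages of MECA367 (331). Pgam1, phosphoglycerate mutase, was high in monocytes (219.7, 219 and 182) and low in plasma cells (37.4, 55.6 and 57.2). Gpi1, which turns glucose phosphate to fructose phosphate, was highest in neutrophils of MECA367 and RatIgG, at 369.5 and 301 CPM. The phosphofructokinase genes set the committed step: Pfkp was highest in monocytes or macrophages of each library (195, 197 and 206 CPM), while Pfkl was highest in absorptive colonocytes (81.9, 78.9 and 64.3).

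At the lower end of the pathway, Pkm, the pyruvate kinase, was highest in monocytes of each library. Monocytes held 843, 779 and 793 CPM in DATK32, MECA367 and RatIgG, macrophages 562, 673 and 569.9, neutrophils 529, 749.8 and 487, and goblet cells 96.0, 91.5 and 108. Eno1, enolase, was also highest in monocytes, at 122, 137 and 88.2 CPM, though its intervals met those of the next class. Its reads may in part be shared with the near-identical Eno1b, and Gapdh and other enzymes have many pseudogene copies, so their absolute levels are uncertain. Ldha, which makes lactate, was found in every class: absorptive colonocytes held 541, 536 and 544 CPM, cycling crypt cells 512, 446 and 556, T cells 347, 480 and 387, and plasma cells 121, 109.6 and 113.

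Pfkfb3 makes the activator of phosphofructokinase and is known for its part in vessel sprouting. It was highest in endothelial cells, at 126 CPM in DATK32, 232 in MECA367 and 268 in RatIgG, with 83.2, 86.997 and 107 in macrophages and at most 10.2 in any columnar epithelial class. Pdk1, which holds pyruvate back from mitochondria, stayed at or under 36.995 CPM in each of the 16 classes and 3 libraries.

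Hif1a was highest in monocytes of each library. Monocytes held 591 CPM [504 to 688] in DATK32, 499 [427 to 579.7] in MECA367 and 511 [409.6 to 631] in RatIgG, and macrophages 416, 476 and 471. Endothelial cells (307, 272 and 336), T cells (305, 370.4 and 303) and neutrophils (305, 259.8 and 247) held less. NK cells or ILC1 had a mean of 277 CPM over the libraries, near that of neutrophils at 270. Absorptive colonocytes held 94.5, 70.5 and 80.9 CPM, and cycling crypt cells, the highest of the columnar epithelium, 202, 137 and 157. The columnar epithelium thus lay below the myeloid classes and T cells in each library. The prolyl hydroxylases that destroy HIF-1α were low: Egln1 lay between 6.18 and 56.8 CPM, and Egln3, itself a HIF target, at 48.03, 17.7 and 28.6 in Lum and Dpt fibroblasts and at or under 28.1 in each other of the 16 classes.

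The mitochondrial members followed other lineages. Higd1a, a small protein of the respiratory chain, was highest in absorptive colonocytes, at 565, 513 and 659.8 CPM in DATK32, MECA367 and RatIgG, with 342, 401 and 281 in interstitial cells of Cajal. Bnip3l, a mitophagy receptor, varied little, with T cells highest at 140.9, 163 and 176 CPM and plasma cells lowest at 41.1, 60.99 and 51.0. Immunoglobulin genes took 49.3%, 52.2% and 47.3% of plasma cell UMIs, which lowers the CPM of every other gene there. Bnip3, a relative of Bnip3l, was low, at 78.4, 49.1 and 24.1 in smooth muscle cells or pericytes and at most 7.02 in any columnar epithelial class.

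Secreted products had their own sources. Vegfa, the vascular growth factor, was carried by NK cells or ILC1, at 272, 352 and 264 CPM in DATK32, MECA367 and RatIgG, and by macrophages, at 291, 226 and 248. Neutrophils held 48.6, 52.1 and 88.7 CPM. Mif, a cytokine released from stores, was high in cycling crypt cells, at 575, 618 and 559.8 CPM, and in T cells, at 423, 673 and 442. Adm, the vasodilator adrenomedullin, was found mostly in absorptive colonocytes (69.3, 144 and 64.3) and Lum and Dpt fibroblasts (55.8, 54.5 and 66.6), and NK cells or ILC1 held 0 UMIs in each library, where 3 UMIs would be 9.27, 6.51 and 20.8 CPM.

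The remaining members serve the secretory pathway and stress. P4ha1, which hydroxylates collagen, was highest in Lum and Dpt fibroblasts, at 158, 168 and 146 CPM in DATK32, MECA367 and RatIgG, with intervals that overlapped those of other classes. Ero1l, an oxidase of the endoplasmic reticulum, was highest in macrophages, at 135, 139 and 74.3 CPM, with overlapping intervals. Ndrg1, a stress-responsive gene, was highest in endothelial cells, at 325, 286 and 249 CPM, and reached 206, 191 and 199 in goblet cells but at most 33.8 in both crypt classes.

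Of the members, 14 of 31 had the same highest class in all 3 libraries, where 36.6% of all genes with such a level did, so this share is not far from the background. The classes were the absorptive colonocyte for Pfkl, Aldoa and Higd1a, the monocyte for Hif1a, Eno1 and Pkm, the neutrophil for Slc2a3 and Slc16a3, the endothelial cell for Pfkfb3 and Ndrg1, and 1 class each for Tpi1, P4ha1, Ero1l and Bnip3l. For 10 of these, each library's value in the highest class lay above every library's value in every other class, and the exceptions were Pfkl, Eno1, Ero1l and Bnip3l. For each of the 14, the interval of the highest class overlapped the interval of another class in at least 1 library.

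**Figure D3:**
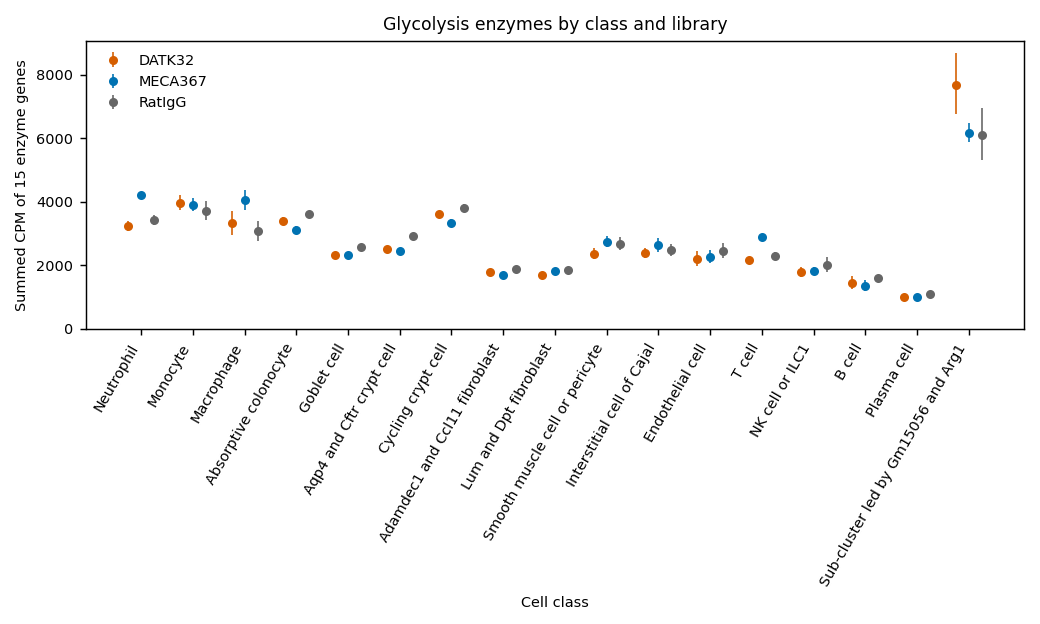
Summed CPM of 15 glycolysis enzyme genes (vertical axis from 0) in 16 classes and in 1 myeloid sub-cluster led by Gm15056 and Arg1; points are the 3 libraries and bars exact Poisson 95% intervals. The sub-cluster lies at 7682, 6165 and 6096 in DATK32, MECA367 and RatIgG, above every class, and plasma cells lie lowest.

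Summed over the 15 enzymes, the classes spanned a wide range. Monocytes stood at 3955, 3899 and 3720 CPM in DATK32, MECA367 and RatIgG, neutrophils at 3233, 4202 and 3420, and macrophages at 3317, 4048 and 3073. Absorptive colonocytes (3406, 3123 and 3599) and cycling crypt cells (3604, 3337 and 3795) lay near the myeloid classes in DATK32 and RatIgG and below them in MECA367, and goblet cells held 2332, 2313 and 2568. T cells held 2180, 2895 and 2292, Adamdec1 and Ccl11 fibroblasts 1777, 1679 and 1887, Lum and Dpt fibroblasts 1705, 1805 and 1846, and B cells 1438, 1356 and 1583. Plasma cells were lowest at 1015, 1002 and 1086, and reached 2001, 2094 and 2060 when their immunoglobulin genes were left out of the total, so their place rests on the RNA that antibody genes take up.

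A group of myeloid cells stood above all of these classes. Within the cluster that holds monocytes and macrophages, 18 cells of DATK32, 66 of MECA367 and 28 of RatIgG formed a sub-cluster led by Gm15056, Arg1, Procr, Ptges, Cxcl3, Anpep, Saa3, Pdpn, Inhba and Nos2. Arg1 encodes arginase and Nos2 the inducible nitric oxide synthase, which compete for arginine in activated myeloid cells. The sub-cluster took no class name because its monocyte marker score was too low, and it was picked out here after its values were seen. The summed enzymes stood at 7682 CPM [6773 to 8679] in DATK32, 6165 [5866 to 6475] in MECA367 and 6096 [5327 to 6944] in RatIgG. Pkm held 1459, 1037 and 1052 CPM there, Gapdh 893, 1103 and 1268, and Hif1a 893, 666 and 782. Of its hypoxia response genes, Ero1l stood at 655, 337 and 405 CPM and Bnip3 at 268, 89.0 and 243. These values rest on the few cells above and are given without intervals. Most of the other hypoxia response genes are not given for these cells, so nothing is said of the set. The members were left out of the genes used for clustering, but genes that vary together with them could stay in. Whether the grouping is independent of these levels was not tested.

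The first comparison asks how the cells of mice given DATK32 differed from those given RatIgG. A member was called in a class at a fold of at least 1.5 with both intervals apart, among genes with at least 50 UMIs in the class. Of 340 measured pairs of member and class, 3 were higher and 7 lower, against backgrounds of 1.05% and 1.55% of all 82661 gene and class pairs. The shares were close to those of other genes. Scaled by TMM (trimmed mean of M-values), 7 pairs were higher and 1 lower. TMM moves the ratio of every gene in a class alike, so the share of all genes called moves too. That share is not given here, and the TMM counts are not read as a result about the members. In neutrophils 0 of 28 measured members were higher and 1 was lower (background 2.54% and 3.1%), with a median log2 ratio of -0.03 for the members and -0.15 for all measured genes. In monocytes 0 of 22 were called (background 1.24% and 1.01%) and in macrophages 0 of 14 (1.79% and 1.19%), with medians of 0.09 and -0.003 for the members, against -0.04 and 0.06 for all measured genes.

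The called pairs were scattered over lineages. Hif1a in B cells was higher at 342 CPM in DATK32, against 143 in RatIgG, a log2 ratio of 1.28 [0.73 to 1.78] (background in B cells 1.74% higher and 1.41% lower). Plasma cell markers summed to 954 CPM in the B cells of DATK32, against 8012 in those of RatIgG, and the part of this in the Hif1a value was not tested. Hk2 was higher in cycling crypt cells at 301 CPM, against 198 (0.60 [0.36 to 0.86], background 0.911%), where Egln1 was lower at 28.7 CPM, against 53.2 (-0.89 [-1.50 to -0.29], background 1.26%).

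P4ha1 was higher in Adamdec1 and Ccl11 fibroblasts, at 109 CPM in DATK32, against 61.3 in RatIgG (0.83 [0.30 to 1.38], background 1.18% higher and 1.62% lower), a call kept in 5 of 12 alternatives. Slc2a3 was lower in T cells at 13.3 CPM, against 35.9 (-1.39 [-2.53 to -0.40], background 1.32%), a call kept in 4 of 9 alternatives. Pfkfb3 was lower in endothelial cells at 126 CPM, against 268 (-1.05 [-1.91 to -0.30], background 1.64%). The Slc2a3 and Pfkfb3 calls rest on 13 and 21 UMIs in DATK32. Mif in neutrophils was lower at 170.1 CPM, against 283 (-0.73 [-1.14 to -0.34]). The remaining lower calls were Ndrg1 in NK cells or ILC1 (-1.47, 1 of 17 measured members lower, background 1.34% higher and 2.45% lower), Pgam1 in plasma cells (-0.60, 1 of 24 lower, background 1.14% and 1.77%) and Pkm in smooth muscle cells or pericytes (-0.70, background 1.82%). The rest of the columnar epithelium and the Lum and Dpt fibroblasts had no call: 0 of 24 measured members in absorptive colonocytes, 0 of 26 in goblet cells and 0 of 25 in Aqp4 and Cftr crypt cells (backgrounds 0.753% and 0.794%, 0.677% and 1.18%, 0.35% and 1.26%), and 0 of 25 in Lum and Dpt fibroblasts (0.783% and 1.91%). Interstitial cells of Cajal had 0 of 13 (1.16% and 1.83%).

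The Mif value in neutrophils depended on the cells kept and on the scaling. The 9 columnar epithelial markers, each above 0, summed to 5725 CPM in neutrophils of DATK32, 3366 in those of MECA367 and 7189 in those of RatIgG, and 13.4%, 9.2% and 21.5% of neutrophils had over 0.5% epithelial-marker UMIs. Without those cells the Mif log2 ratio of DATK32 over RatIgG was 0.02, so the lower level was not present in the remaining cells. The call was also lost with TMM, with a mitochondrial limit of 5% and with a mean over cells in place of summed counts. The part of epithelial RNA in this value was not tested.

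The second comparison asks the same of MECA367 against RatIgG. Of the 340 pairs, 12 were higher and 18 lower, against backgrounds of 2.82% and 5.27%, so the shares were close to those of other genes. Scaled by TMM, 25 were higher and 12 lower, again without the share of all genes under TMM beside them. Hk2 alone gave 11 of the 18 lower pairs by class totals, and the other members gave 12 higher and 7 lower pairs.

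In neutrophils, 4 of 28 measured members were higher and 4 lower (background 7.22% and 21.8%). Hk3 stood at 68.9 CPM [57.8 to 81.6] in MECA367, against 32.4 [18.2 to 53.5] in RatIgG, a log2 ratio of 1.004 [0.31 to 1.96]. Eno1 stood at 119.9 CPM, against 60.6 (0.94 [0.42 to 1.61]), Pkm at 749.8 CPM, against 487 (0.62 [0.42 to 0.83]), and Gapdh at 1071 CPM, against 707 (0.59 [0.43 to 0.77]).

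The lower members in neutrophils were Higd1a at 118 CPM in MECA367, against 229 in RatIgG (-0.96 [-1.29 to -0.61]), Mif at 151 CPM, against 283 (-0.92 [-1.21 to -0.60]), Hk2 at 87.8 CPM, against 160.1 (-0.88 [-1.27 to -0.45]), and Vegfa at 52.1 CPM, against 88.7 (-0.79 [-1.30 to -0.21]). Across all measured genes the neutrophil median was -0.42, against 0.08 for the members. Neutrophil markers summed to 179826 CPM in MECA367 and 87538 in RatIgG, so the class total itself was composed differently. Scaling by TMM lifts every neutrophil ratio by 0.54, and then 13 members were higher and 0 lower (background 18.9% and 5.53%), so the calls of Higd1a, Mif, Hk2 and Vegfa were lost, with ratios of -0.42, -0.38, -0.34 and -0.25.

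Several of these values changed with the cells that were kept. Without neutrophils over the epithelial limit, the log2 ratios were -0.22 for Higd1a, -0.16 for Mif, 0.30 for Hk3 and 0.28 for Pkm, and Eno1, Gapdh and Hk2 were no longer called. With a mitochondrial limit of 5% the ratio of Hk3 was -0.09, and the calls of Higd1a, Mif, Hk2, Pkm and Gapdh were lost as well. The part of epithelial RNA in these values was not tested.

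**Figure D4:**
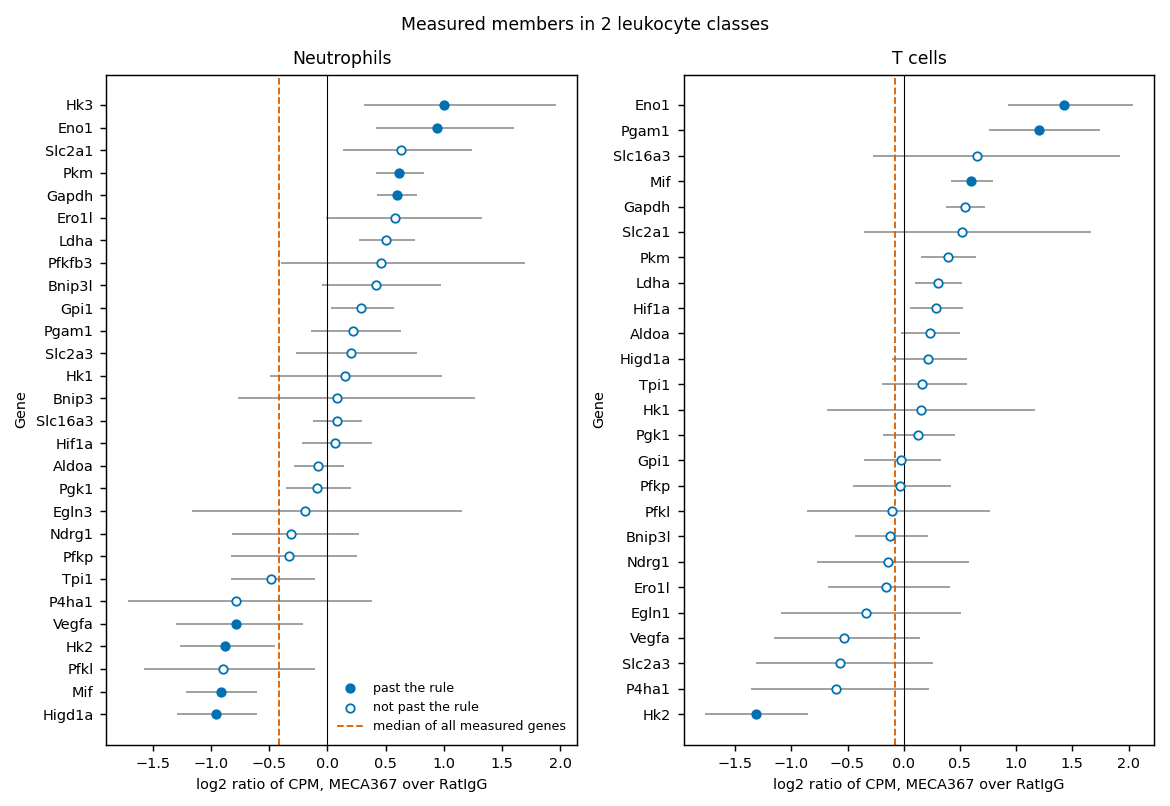
Log2 ratio of CPM, MECA367 over RatIgG (horizontal axes), for every measured member in neutrophils (28) and T cells (25); bars are exact 95% intervals, filled points pass the rule of fold and intervals, and the dashed line is the median of all measured genes. Most neutrophil members lie right of that median at -0.42, and Eno1 and Pgam1 lead in T cells while Hk2 is lowest.

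In T cells, 3 of 25 measured members were higher and 1 lower (background 3.12% and 4.83%), with a median of 0.15 for the members and -0.08 for all measured genes. Eno1 stood at 136 CPM in MECA367, against 49.3 in RatIgG (1.43 [0.93 to 2.04]), Pgam1 at 148 CPM, against 62.8 (1.21 [0.75 to 1.75]), and Mif at 673 CPM, against 442 (0.60 [0.42 to 0.80]). Hk2 was lower at 51.8 CPM, against 128.5 (-1.31 [-1.77 to -0.85]). Pgam1 and Eno1 act next to each other in the pathway, and had the highest ratios among the measured members of T cells. As a mean over cells rather than a summed level, the ratio of Mif was 0.01 and that of Pgam1 0.58. At a clustering resolution of 0.5, the ratio of Mif was 0.155 and that of Eno1 0.80.

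Monocytes and macrophages had few calls. In monocytes 0 of 22 measured members were called (background 2.76% and 3.13%), with Hk2 at -0.61, not past the rule. In macrophages Gapdh was higher at 847 CPM in MECA367, against 520.4 in RatIgG (0.69 [0.27 to 1.15]), and Hk2 was lower at 174 CPM, against 355 (-1.02 [-1.75 to -0.32]), which makes 1 of 14 in each direction (background 5.63% and 4.01%).

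In the epithelium, Adm was higher in absorptive colonocytes at 144 CPM in MECA367, against 64.3 in RatIgG (1.16 [0.77 to 1.57]), with Hk2 lower, 1 of 24 measured members each way (background 1.55% and 2.9%). Goblet cells also had 1 of 26 each way (background 1.33% and 2.85%): Eno1 at 65.2 CPM, against 42.5 (0.62 [0.28 to 0.96]), and Hk2. Aqp4 and Cftr crypt cells had 2 of 25 lower (background 2.96%), Hk2 and Hif1a, the second at 54.5 CPM, against 98.2 (-0.84 [-1.24 to -0.47]). Cycling crypt cells had Aldoa lower at 262 CPM, against 419.6 (-0.67 [-0.92 to -0.44]), 0 higher and 1 lower of 25 (background 2.61% and 2.88%).

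In the stroma, P4ha1 was higher in Adamdec1 and Ccl11 fibroblasts at 94.2 CPM in MECA367, against 61.3 in RatIgG (0.60 [0.17 to 1.09]), with Hk2 lower, 1 of 27 measured members each way (background 3.16% and 5.42%). Lum and Dpt fibroblasts had 2 of 25 lower (background 4.55%), Hk2 and Higd1a, the second at 36.8 CPM, against 90.4 (-1.26 [-2.01 to -0.63]). Without cells over the epithelial limit this Higd1a ratio was 0.07. Plasma cells had Eno1 higher (0.98, background 2.71%) and Hk2 and Pfkp lower (-1.09 and -0.71, background 8.78%). Hk2 was also lower in smooth muscle cells or pericytes (background 2.76%) and B cells (background 1.94% higher and 3.85% lower), while endothelial cells, interstitial cells of Cajal and NK cells or ILC1 had no call among 15, 13 and 17 measured members (backgrounds 4.29% and 4.45%, 4.08% and 2.92%, 2.3% and 3.26%).

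The third comparison sets DATK32 against MECA367, and it shares each library with one of the comparisons above. Of the 340 pairs, 17 were higher and 11 lower, against backgrounds of 3.08% and 2.12%. Scaled by TMM, 18 were higher and 22 lower, also without the share of all genes under TMM. Hk2 gave 10 of the higher pairs by class totals. In neutrophils, Hk2 (1.04 [0.66 to 1.40]) and Higd1a (0.94 [0.60 to 1.26]) were higher, 2 of 28 (background 8.87%). Hk3 at 29.9 CPM in DATK32, against 68.9 in MECA367 (-1.13 [-2.05 to -0.45]), Gpi1 at 224 CPM, against 369.5 (-0.71 [-1.01 to -0.44]), Gapdh (-0.64 [-0.81 to -0.48]) and Pgam1 (-0.61 [-1.05 to -0.23]) were lower, 4 of 28 (background 3.25%). The members' median was -0.09, against 0.24 for all measured genes.

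In T cells, Eno1 (-0.87 [-1.29 to -0.49]), Pgam1 (-0.84 [-1.24 to -0.48]), Pkm (-0.67 [-0.90 to -0.45]) and Mif (-0.67 [-0.84 to -0.50]) were lower in DATK32 than in MECA367, 4 of 25 (background 2.52%), and Hk2 was higher, 1 of 25 (background 3.68%). The members' median was -0.32, against -0.04 for all measured genes. Pkm stood at 235 CPM in T cells of DATK32, against 376 in those of MECA367. The 4 lower calls were lost with means over cells and at a clustering resolution of 0.5, and over all alternatives the ratios nearest to 0 were -0.18 for Eno1, -0.12 for Pgam1, -0.21 for Pkm and -0.096 for Mif.

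Elsewhere, Hif1a was higher in B cells (1.30 [0.60 to 2.07]) and in Aqp4 and Cftr crypt cells (0.61 [0.22 to 1.04]), and Mif was higher in B cells, at 413 CPM in DATK32, against 199.8 in MECA367 (1.04 [0.43 to 1.68]), so 2 of 14 measured members were higher in B cells (background 2.18%) and 2 of 25 in these crypt cells (background 1.59%). Vegfa was lower in cycling crypt cells at 49.8 CPM, against 82.4 (-0.73 [-1.21 to -0.24], background 2.16%), and Adm in absorptive colonocytes at 69.3 CPM, against 144 (-1.05 [-1.44 to -0.67], background 1.31%). Ndrg1 was higher in Adamdec1 and Ccl11 fibroblasts (0.72, background 3.27%) and Egln3 in Lum and Dpt fibroblasts (1.36, background 2.41%), each beside Hk2. Aldoa was higher in endothelial cells (0.94, background 4.4%) and Pkm lower in smooth muscle cells or pericytes (-0.90, background 3.64%). In monocytes and macrophages Hk2 was the call, 1 of 22 and 1 of 14 (backgrounds 2.9% and 3.24%), and so it was in goblet cells, 1 of 26 (2.39%), and plasma cells, 1 of 24 (4.21%).

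Hk2 was thus the member that moved across lineages, and the shift lay with the MECA367 library. It was lower in MECA367 than in RatIgG in 11 of 14 classes in which it was measured, with a median log2 ratio of -0.99. Endothelial cells and interstitial cells of Cajal held under 50 UMIs of it. Among the called classes, ratios ran from -1.70 [-4.41 to -0.44] in B cells, where MECA367 held 3 UMIs, to -0.88 [-1.27 to -0.45] in neutrophils. The goblet cell ratio of -0.89 [-1.04 to -0.75] rests on 531 UMIs in MECA367 and 1411 in RatIgG. Cycling crypt cells went the other way, at 248 CPM in MECA367, against 198 in RatIgG, a ratio of 0.33 that did not pass the rule. DATK32 was above MECA367 in 14 of 14 classes and past the rule in 10, and between DATK32 and RatIgG 1 of 14 classes was called.

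**Figure D5:**
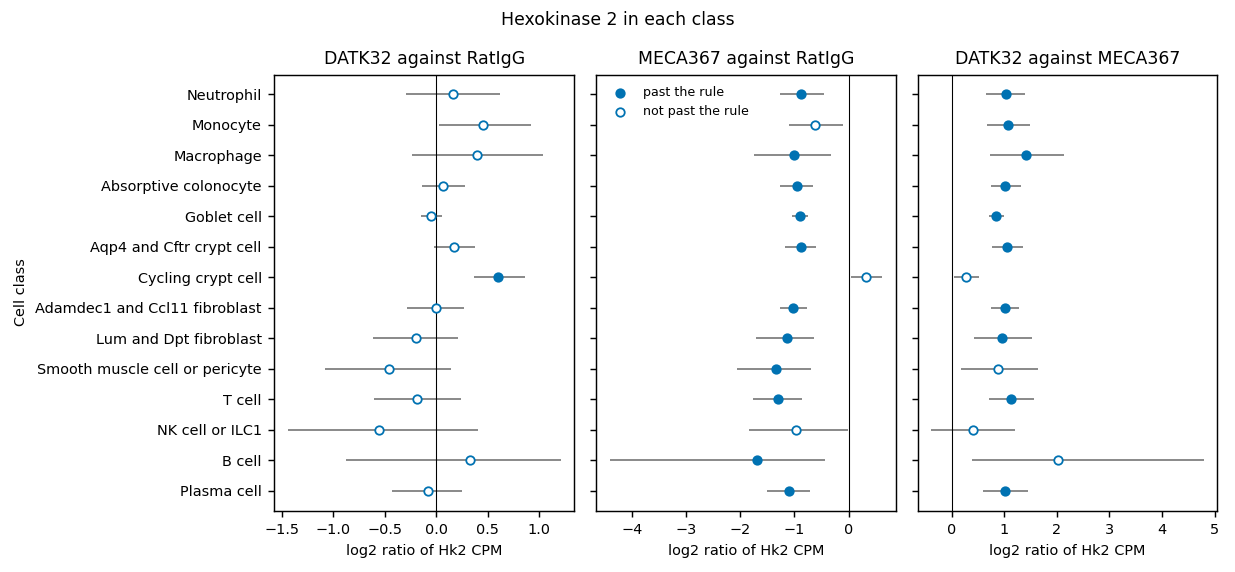
Log2 ratio of Hk2 CPM in 14 classes (vertical axis) for the 3 comparisons (panels, horizontal axes of different spans); points are ratios, bars exact 95% intervals, and filled points pass the rule. In MECA367 against RatIgG 11 points are filled and left of 0, in DATK32 against MECA367 all lie right of 0, and in DATK32 against RatIgG they lie on both sides of 0.

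Few genes moved so widely. Of 1467 genes measured in at least 14 classes, 16 (1.09%) were lower in at least 11 classes of MECA367 against RatIgG and 18 (1.23%) were higher in at least 10 classes of DATK32 against MECA367. These limits are the counts of Hk2 itself, and Hk2 is among both the 16 and the 18. The shares thus describe its rank and are no test of it. At least 1 class was called higher for 11.5% of these genes in DATK32 against RatIgG. The 16 hold Hk2 and the short ribosomal or mitochondrial transcripts Rps28, Rps29, Rpl38, Atp5k, mt-Atp8 and mt-Nd3. The others are Btg1, Cldn7, Dmbt1, Dstn, Edn1, Igkc, Malat1, Nmt1 and Tle4. Rps29 was lower in 16 of 16 classes (median -1.01), mt-Nd3 in 16 of 16 (-0.88), Atp5k in 15 of 16 (-0.92) and Nmt1 in 12 of 16 (-1.31). Ubb was higher in 15 of 16 (0.99). Such shifts, common to epithelium, stroma and leukocytes, move with the library, and their part in the Hk2 result was not tested. An effect of the antibody and a difference between single libraries cannot be told apart.

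Other members that hypoxia and HIF-1 are known for had few calls or none. Most pairs of all genes and classes had no call either in each comparison, as the backgrounds above show. Ldha was measured in 16 classes and called in 0 of them in any comparison. Slc2a1 was called in 0 of 8 classes in any comparison, and 11 members in all had no call: Bnip3, Bnip3l, Ero1l, Hk1, Ldha, Pdk1, Pfkl, Pgk1, Slc16a3, Slc2a1 and Tpi1. Bnip3 was measured in only 3 classes, and Pdk1 and Slc16a3 in 5 each. The share of all genes without a call in as many classes is not given here, so this count is not read as a result about the members. Vegfa was called in 1 of 12 classes in each of 2 comparisons, Pfkfb3 in 1 of 5 in 1 comparison, and Hif1a in 1 of 16 against RatIgG for each antibody.

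The related pathways were read from lists chosen with earlier results of these data known. Of the other glycolysis isoforms, 42 measured pairs of gene and class gave 1 higher and 0 lower in MECA367 against RatIgG. That call was Adpgk, the ADP-dependent glucokinase, in neutrophils, at 109 CPM in MECA367, against 53.6 in RatIgG (0.96), and its ratio in DATK32 against MECA367 was -1.11, the single call there. Gluconeogenesis genes gave 0 higher and 2 lower of 23 pairs in MECA367 against RatIgG, Fbp2 in neutrophils (-1.32) and Pck1 in Aqp4 and Cftr crypt cells (-1.22), and Pck1 was also the single lower call of DATK32 against RatIgG, in absorptive colonocytes (-0.67). In DATK32 against MECA367, 2 were higher, Fbp2 in neutrophils (1.10) and G6pc3 in goblet cells (0.79).

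The pentose phosphate pathway, which branches off to make NADPH, had 4 of 86 pairs higher and 5 lower in MECA367 against RatIgG (4.65% and 5.81%, background 2.82% and 5.27%). G6pdx, its first enzyme, was higher in neutrophils at 86.8 CPM in MECA367, against 34.6 in RatIgG (1.26), and Pgls was higher in monocytes (1.08). In DATK32 against RatIgG the single call was lower, Tkt in neutrophils (-0.61), and in DATK32 against MECA367 0 were higher and 4 lower, among them Tkt (-0.82) and G6pdx (-0.75) in neutrophils. Of other sugar and monocarboxylate carriers, 2 of 68 pairs were higher and 5 lower in MECA367 against RatIgG (2.94% and 7.35%, same background). The mitochondrial pyruvate carrier genes Mpc1 in macrophages (1.45) and Mpc2 in monocytes (1.28) were higher, while Slc5a1 (-1.48), Slc16a1 (-1.41) and Bsg (-0.88) were lower in neutrophils. In DATK32 against RatIgG the single call was lower, Slc5a1 in neutrophils (-1.68), and in DATK32 against MECA367 2 were higher and 2 lower.

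Genes of pyruvate dehydrogenase and the TCA cycle gave 0 higher and 30 lower of 271 pairs (11.1%) in MECA367 against RatIgG, where the background of lower pairs was 5.27%. Of the 30, 13 lay in neutrophils, the class with the largest background of lower pairs in this comparison. There 22 genes of the list were measured with a median log2 ratio of -1.03, against -0.42 for all measured genes. The 13 included Pdk4 (-1.58) and Sdhc (-1.51). In the same comparison TMM lifts every neutrophil ratio by 0.54. Of the neutrophils, 9.2% in MECA367 and 21.5% in RatIgG were over the epithelial limit. The part of either in these calls was not tested. In DATK32 against RatIgG the list gave 0 higher and 6 lower (background 1.05% and 1.55%), and in DATK32 against MECA367 8 higher and 5 lower (3.08% and 2.12%).

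The wider list of hypoxia targets gave 21 higher and 27 lower of 252 pairs in MECA367 against RatIgG (8.33% and 10.7%, background 2.82% and 5.27%). It gave 5 and 12 in DATK32 against RatIgG (1.98% and 4.76%, background 1.05% and 1.55%), and 17 and 16 in DATK32 against MECA367 (6.75% and 6.35%, background 3.08% and 2.12%). Hilpda and Plin2 coat lipid droplets. Hilpda was higher in monocytes of MECA367 at 540 CPM, against 312 in RatIgG (0.77), and in macrophages (0.70), and Plin2 in macrophages (0.80) and T cells (1.21). Nos2 was higher in neutrophils of both antibody groups, at 174 CPM in DATK32 and 225 in MECA367, against 60.6 in RatIgG (1.49 and 1.85). Lox, which cross-links collagen, was higher in Lum and Dpt fibroblasts of MECA367 at 269.7 CPM, against 112 (1.26). Cxcr4 was lower in monocytes (-1.33) and macrophages (-1.16) of MECA367. Edn1, endothelin, was lower in MECA367 in at least 11 classes, among them Lum and Dpt fibroblasts (-3.26) and T cells (-2.57). It is one of the 16 genes that moved across the library. This 1 gene thus gives at least 11 of the 27 lower pairs against RatIgG. The share without it is not given, so 10.7% is not read as a result about the whole list.

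HIF partners, which include its other subunits and the degradation machinery, had 2 of 160 pairs higher and 0 lower in MECA367 against RatIgG (background 2.82% and 5.27%), both Rbx1 (interstitial cells of Cajal 1.10, T cells 0.77), and 0 higher and 1 lower in DATK32 against RatIgG, Epas1 in goblet cells (-0.65). In DATK32 against MECA367 the single call was lower, Cited2 in NK cells or ILC1 (-1.28). Epas1, which encodes HIF-2α, stood at 717 CPM in endothelial cells of DATK32, 669.9 in those of MECA367 and 579 in those of RatIgG, while monocytes, which carry most Hif1a, held 0 in each library.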

How the data were processed

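Single-cell RNA was measured in 3 libraries of colonic lamina propria cells, sorted for CD45 and prepared with 10x 3′ v3.1 chemistry, per the labels' protocols. The deposited values are raw UMI counts per gene and barcode, made by the authors with Cell Ranger 6.0.2 and the build mm10 per the submitters' processing notes. Their annotation and filters are not given in the sources used here. The matrices list 8445 barcodes for DATK32, 8387 for MECA367 and 10826 for RatIgG.

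Cells with at least 500 UMIs and 200 genes and at most 10% mitochondrial UMIs were kept, and the mitochondrial limit removed 30.7%, 29.6% and 31.9% of barcodes in the same order. Median depth was 1524.5, 1824.5 and 1469 UMIs per kept cell. Scrublet's own threshold marked 1 cell, so it did not work and doublets remain in the main values. Cells of all libraries were clustered together (scanpy 1.11.5, Python 3.11.15, igraph 0.11.9) on 2000 variable genes, without the members and the related pathway genes, with 30 components, 15 neighbours, Leiden resolution 1.0 and no batch correction. Clusters took a class name from marker lists with a score of 0.5 or more that led the runner-up by 0.3 or more, and the monocyte and macrophage cluster was clustered again with 20 components. These limits were chosen with the data in view. A mixed neutrophil and fibroblast cluster and others stayed unnamed.

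Counts were summed per class and library, scaled to CPM of the class with exact 95% Poisson limits, and compared as log2 ratios with 1 count added (intervals are exact binomial intervals of the ratio). With 1 library per group there is no p-value. The fold and interval rule was tested on simulated data. TMM factors came from edgeR 4.0.16 (R 4.3.3). The members, the related lists and the marker lists were chosen with earlier results of these data known. Members that passed the rule were named in neutrophils, monocytes, macrophages, T cells, fibroblasts and columnar epithelium, up to 8 per class, with Hif1a, Slc2a1, Hk2, Pfkfb3, Ldha and Vegfa in any case and up to 3 genes per related list, class and comparison. Calls in other classes, and the genes named for moving across the library, were added after their values were seen. Of the alternatives, 12 were planned and 1, leaving immunoglobulin genes out of plasma cell totals, was chosen after seeing the data. Some results that the naming rule would include are not reported here.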

Additional observations from a re-analysis of the deposited data

Results flagged for a closer look

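Mif differed in direction between cell classes in 2 comparisons. In MECA367 against RatIgG its log2 ratio was 0.60 in T cells and -0.92 in neutrophils, both past the rule, and in DATK32 against MECA367 it was 1.04 in B cells and -0.67 in T cells. Each class is 1 sum per library, so the difference between classes was not tested. The neutrophil value was -0.16 without cells over the epithelial limit, and in the T cells of MECA367 against RatIgG the columnar epithelial markers summed to 398 and 1311 CPM.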

How the results depend on the processing

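No paired analysis was possible because each group is 1 library, and no replicate could be left out. Of the 68 called pairs of member and class, 17 kept their call under every alternative that gave a value and 66 in at least 0.5 of theirs. Of the single values, 705 moved by less than their counting interval, 57 moved by more and 4 changed sign: Mif in neutrophils, DATK32 against RatIgG (0.0168 without cells over the epithelial limit), Higd1a in Lum and Dpt fibroblasts, MECA367 against RatIgG (0.0714, the same setting), and, with a mitochondrial limit of 5%, Eno1 in goblet cells (-0.065) and Hk3 in neutrophils (-0.0878), both MECA367 against RatIgG. The cause was not tested.

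The counts of called pairs moved as follows. The share of all genes called can move with each setting as well and is not given beside these counts. In DATK32 against RatIgG, the 3 higher pairs became 7 with TMM, 5 with genes of at least 1 count, 17 with means over cells (which have no interval), and 1 each with at least 1000 UMIs and 500 genes, a mitochondrial limit of 5%, and resolutions of 0.5 and 1.5. The 7 lower pairs became 1 with TMM, 33 with means over cells, and 3 each with at least 200 counts, the mitochondrial limit of 5%, and the epithelial limit. In MECA367 against RatIgG, the 12 higher pairs became 25 with TMM and 31 with means over cells, and the 18 lower pairs 9 with the mitochondrial limit of 5% and 44 with means over cells. In DATK32 against MECA367, the 17 higher pairs became 8 with the mitochondrial limit of 5% and 32 with means over cells, and the 11 lower pairs 22 with TMM, 35 with means over cells and 6 at resolution 0.5. TMM moved every ratio of MECA367 over RatIgG by 0.54 in neutrophils, 0.23 in plasma cells, 0.22 in NK cells or ILC1, 0.18 in monocytes and 0.15 in T cells. Fewer classes had enough cells under some settings, 12 with the mitochondrial limit of 5% and 14 at resolution 0.5.

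Hk2 in MECA367 against RatIgG was lower in 7 of 10 measured classes with the mitochondrial limit of 5%, where it was higher in 1, in 8 of 13 with the epithelial limit and in 9 of 14 with TMM. Depth limits the rarer classes: in macrophages of DATK32, 50 cells carried the values. The exact interval of 0 UMIs there reached up to 38.4 CPM.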

Other observations

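Classes with under 50 cells in a library were left out of the comparisons but carried members at high levels. Squamous epithelial cells, found in DATK32 and RatIgG, held the highest summed glycolysis enzymes of any named class, 4628 CPM in DATK32 and 5159 in RatIgG, with Ldha at 821 and 952 CPM and Mif at 1053 and 921. Group 2 innate lymphoid cells, which answer alarm signals with type 2 cytokines, held Ldha at 805, 809 and 786 CPM in DATK32, MECA367 and RatIgG and Ero1l at 256, 75.6 and 183. Mast cells or basophils, with 7, 27 and 13 cells, held Vegfa at 1311, 436 and 271 CPM. Dendritic cells held Hif1a at 479, 485 and 355 CPM and Hk3 at 16.0, 63.8 and 11.1.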
